A study of Mus musculus with 12 samples.

Results

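The genes described here are 32 mouse genes listed as targets or regulators of the tumour suppressor p53, taken as a list of symbols. Whether p53 acts on each of them in the mouse was not tested. No cut-off on their values was used, but the list was chosen with earlier results of these data known. All 32 were found among the 55401 genes of the deposited table, each symbol at a single identifier, and all 32 were among the 16915 genes with enough counts to be tested. The list holds p53 itself and its inhibitors Mdm2 and Mdm4 (3 genes), genes of cell cycle arrest (8), of apoptosis (11), of DNA repair and nucleotide supply (4), and of metabolism and stress signalling (6).

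p53, encoded by Trp53, is a transcription factor that is kept scarce in unstressed cells because MDM2 ubiquitinates it and MDM4 blocks its activity. DNA damage, oncogene activity or nucleolar stress releases the protein from these inhibitors, mostly without a change in its mRNA, and p53 then switches on genes that halt the cycle, start apoptosis, repair DNA and adjust metabolism, MDM2 among them as a negative feedback. The parental ID8 line, unlike most human high-grade serous ovarian cancers, is known to keep an intact Trp53 gene. The labels state nothing about Trp53 in the derivatives used here.

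Bulk RNA, depleted of ribosomal RNA, was sequenced from peritoneal cells that C57BL/6J mice yielded to a wash with 8 mL of buffered saline. A total of 4 libraries came from mice injected with ID8 (defb29/Vegf-a), a mouse ovarian surface epithelial cancer line whose label names a beta-defensin and a vascular growth factor, and 4 came from mice given ID8 (defb29/Vegf-a) FSHR, written ID8-FSHR below, in which the receptor for follicle-stimulating hormone was added to that line. A further 4 came from mice with no injection. Tumour cells were given into the peritoneum and lavage followed on day 7. The number of cells is 4000000 in the series text and 5000000 in the sample protocol. No mice were injected without tumour cells, so the effects of tumour and of injection cannot be told apart. The submitters call the libraries of a group biological replicates, sample titles skip numbers in the ID8-FSHR group without a stated reason, and age, sex and the promoter of the receptor construct are absent from the labels. The labels give the cell type as a cell line, but the libraries held transcripts of several peritoneal cell types, so every value is a level in a mixture in which fewer cells of a type and less RNA per cell cannot be told apart.

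Total counts ran from 47419608 to 64333677 per library, and no 2 libraries of a group agreed within sampling noise. The summed level of 11 tumour and mesothelial markers was 20.9 to 23.9 CPM (counts scaled to the size of the library) in uninjected mice, 2865 to 3604 CPM with ID8 and 986 to 2531 CPM with ID8-FSHR. ID8-FSHR replicate 2 stood apart with 986 CPM, against 2253 to 2531 CPM in the other 3 libraries of its group. The 10 B cell markers summed to 3036 to 3996 CPM, 390.5 to 568 CPM and 339.8 to 606 CPM in the 3 groups in the same order, and the 10 resident macrophage markers to 11062 to 13666 CPM, 6010 to 7918 CPM and 4922 to 8395 CPM. Gata6 went against the macrophage sum, with means of 101 CPM, 183 CPM and 151 CPM in that order. In the test described below, 8 of these 10 markers were lower in ID8 and 7 in ID8-FSHR than without injection (31.4% and 30.6% of all tested genes). Of the 11 tumour and mesothelial markers, 10 were higher in ID8 and 9 in ID8-FSHR than without injection (32.7% and 33.9% of all tested genes). No marker gene of these lists was at 0 in every library of a group. Fshr itself does not check the label: it had 0 counts in every uninjected library, 2 counts over the ID8 libraries and 9 counts over the ID8-FSHR libraries, 2 of which had none.

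p53 binds DNA at pairs of a 10-base half-site, and p53 acts on its targets through such pairs. Printed here are the stretches of member promoters that resemble such a pair with at most 2 mismatches, and the stretch in the promoter of Trp53 itself, with 3 mismatches. Aen, Bbc3, Dcxr, Mdm4, Plk3 and Tigar also held pairs with 3 mismatches, which are not printed. RefSeq windows of GRCm38.p6 were available for 25 of the 32 members (34 windows of 300 bases, from 250 bases before to 50 bases after an annotated start). Both strands were searched for the p53 half-site consensus, and a pair was counted with a spacer of at most 13 bases and at most 3 mismatches to the consensus. Both half-sites of a pair also had to hold the fixed C and G of the consensus, so mismatches were allowed only at the other bases. Capitals mark the half-sites, and each sequence is read on the strand of its gene.
Cdkn1a, chr17:29090906-29090937, plus strand, no mismatch: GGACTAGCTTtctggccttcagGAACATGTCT
Ccng1, chr11:40755462-40755481, minus strand, 1 mismatch: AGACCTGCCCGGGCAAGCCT
Ckap2, chr8:22186003-22186022, minus strand, 2 mismatches: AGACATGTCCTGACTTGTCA
Bax, chr7:45467079-45467099, minus strand, 2 mismatches: AGGCAAGCTTtGAACTTGCGG
Gadd45a, chr6:67037438-67037463, minus strand, 2 mismatches: GGACCTGGTTggctgaGGGCTAGCCC
Sesn1, chr10:41887253-41887275, plus strand, 2 mismatches: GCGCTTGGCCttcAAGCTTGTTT
Trp53, chr11:69580284-69580303, plus strand, 3 mismatches: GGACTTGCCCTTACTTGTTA
The pair in Cdkn1a lies 73 to 42 bases before the more upstream of its 2 starts, and the pair in Ccng1 195 to 176 bases before its start. Only the best match of each window is marked, and other pairs may lie beside it. In Cdkn1a the downstream half-site is followed without a spacer by 10 further bases, left in small letters. Those bases form a pair with it at 1 mismatch. A pair was present in 15 of the 34 member windows (44.12%), from 13 of the 25 members, against 15.57% of all 32841 RefSeq windows of this length. With no more than 1 mismatch the shares were 5.882%, the 2 windows of Cdkn1a and Ccng1, and 0.6273%. An exact single half-site was present in 12 member windows (35.29%) and in 8.358% of all windows. The 2 windows of Aen overlap and hold the same pair, counted in both, and those of Psrc1 also overlap. The members were listed as p53 genes, so their shares are not independent of the choice of list, and no test was made.

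The 250 bases before the start are shown for the 2 best matches and for Phlda3, a gene raised in both tumour groups whose window held no match.
Cdkn1a, chr17:29090729-29090978, plus strand: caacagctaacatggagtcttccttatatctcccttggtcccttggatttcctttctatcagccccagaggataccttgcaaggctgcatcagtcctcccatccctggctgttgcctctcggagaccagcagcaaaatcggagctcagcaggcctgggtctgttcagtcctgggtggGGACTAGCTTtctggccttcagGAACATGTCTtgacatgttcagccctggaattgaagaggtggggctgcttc
Ccng1, chr11:40755287-40755536, minus strand: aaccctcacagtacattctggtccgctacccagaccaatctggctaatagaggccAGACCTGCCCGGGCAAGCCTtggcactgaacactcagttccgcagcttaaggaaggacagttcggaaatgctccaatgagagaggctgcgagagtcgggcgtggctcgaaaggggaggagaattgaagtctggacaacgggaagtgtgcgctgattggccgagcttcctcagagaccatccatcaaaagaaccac
Phlda3, chr1:135765835-135766084, plus strand: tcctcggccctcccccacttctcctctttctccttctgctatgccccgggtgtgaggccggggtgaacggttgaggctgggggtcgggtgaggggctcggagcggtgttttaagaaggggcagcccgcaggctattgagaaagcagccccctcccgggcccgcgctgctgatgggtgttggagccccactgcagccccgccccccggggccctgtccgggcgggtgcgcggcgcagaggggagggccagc
A match describes letters and is not evidence of binding, and a missing match says only that the letters are not in this window. The windows of Apaf1, Btg2, Eda2r, Gdf15, Pidd1, Plk2, Psrc1 and Sesn2 held none either, and Ei24, Mdm2 and Polk had a single half-site but no pair. A second window of Cdkn1a, at a start further downstream (chr17:29093519-29093818), held neither.

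Genes were called higher or lower where edgeR's quasi-likelihood F test over all 16915 genes gave a Benjamini-Hochberg adjusted p under 0.05. Levels are in CPM scaled by effective library size and given as mean ± standard deviation (SD) with n = 4, and differences are log2 fold changes ± standard error (SE). In ID8 against no injection, 20 of the 32 genes were higher and 5 were lower, and 7 did not pass the test, with no overlap between the libraries of the 2 groups for 20 higher and 5 lower genes. Over all tested genes 32.7% were higher and 31.4% were lower, and groups did not overlap for 31.8% in the higher and 30.7% in the lower direction. The median log2 difference was 0.61 over the members and -0.03 over all genes.

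In ID8-FSHR against no injection, 18 members were higher, 7 were lower and 7 did not pass, against 33.9% higher and 30.6% lower among all genes. The groups did not overlap for 16 higher members (29.6% of all genes) and 7 lower members (27.4%). The median log2 difference was 0.39 over the members and 0.00083 over all genes. Both comparisons use the same 4 uninjected libraries.

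In ID8-FSHR against ID8, 15 members were lower, where 5.56% of all genes were lower, and 3 were higher (Ckap2, Apaf1 and Pidd1), where 6.04% of all genes were. The groups did not overlap for 15 lower members (10.8% of all genes) and 1 higher member (7.74%). The median log2 difference was -0.28 over the members and -0.01 over all genes, and the difference was below 0 for 24 of the 32. The group means of 18 members ran from no injection through ID8-FSHR to ID8. The shares of all genes with this order of means or with a difference below 0 were not computed. The members together took 0.148% to 0.159% of all counts in uninjected libraries, 0.175% to 0.197% in ID8-FSHR and 0.232% to 0.251% in ID8. Without ID8-FSHR replicate 2, 15 members were lower and 2 higher than in ID8, where 1694 of all genes were called in either direction. In the same refit 21 members were higher and 6 lower than in uninjected mice, where 11166 of all genes were called. The count of members higher in ID8-FSHR than in ID8 was 1 without ID8 replicate 3 or 4, and the count of all genes called between these groups ran from 961 to 3136 when 1 library was left out.

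**Figure D1:**
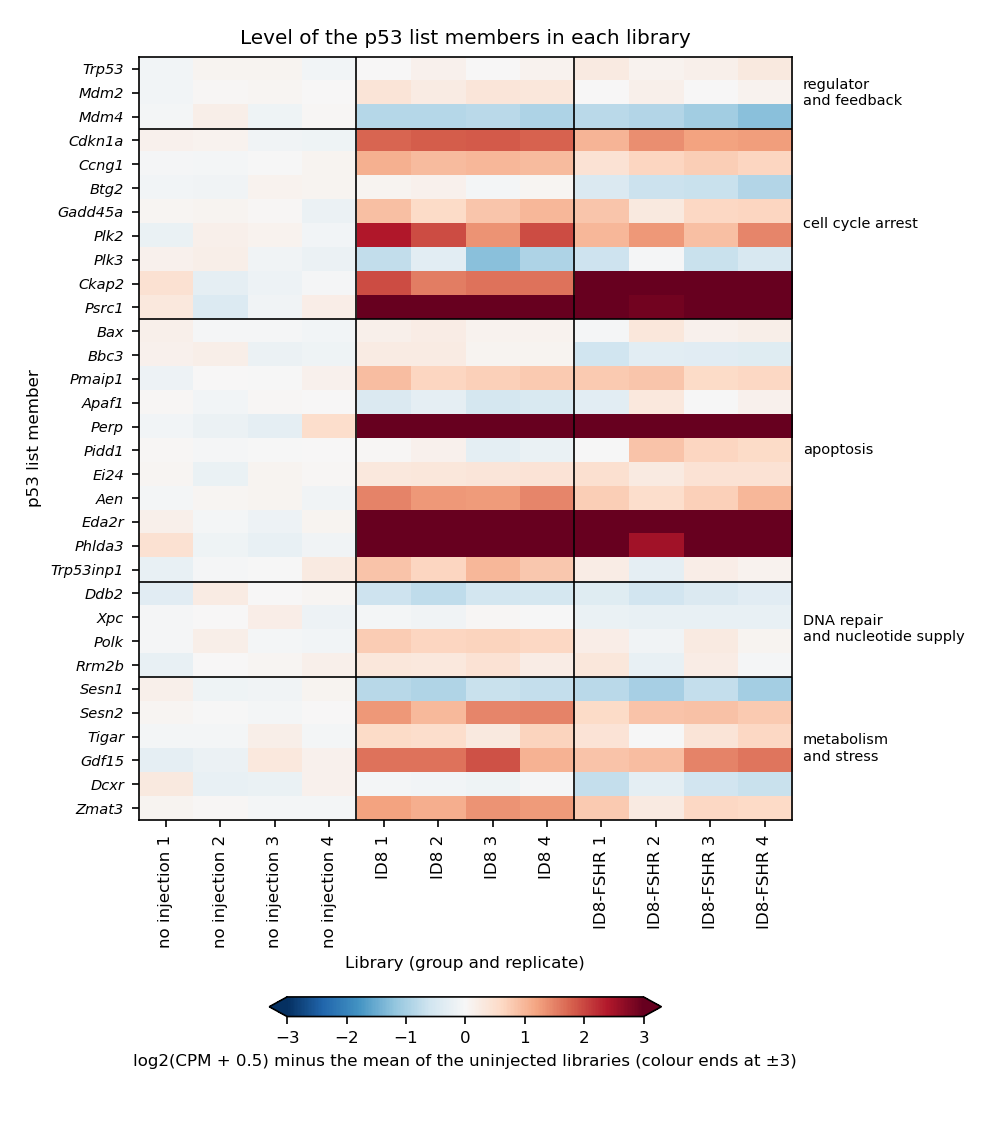
Level of each of the 32 genes (rows, grouped by role) in each of the 12 libraries (columns), as log2 of CPM with 0.5 added, relative to the mean over the 4 uninjected libraries, with red above and blue below that mean and the colour ending at 3 in either direction. Perp, Eda2r, Phlda3 and Psrc1 form deep red rows in both tumour groups. Ckap2 is deeper red in ID8-FSHR than in ID8, and Mdm4 and Sesn1 are blue in all 8 tumour libraries.

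Trp53 mRNA lay between 77.4 and 101 CPM in all 12 libraries. It stood at 77.4, 86.6, 87.4 and 77.5 CPM in the uninjected libraries, 82.8, 89.6, 83.4 and 88.9 CPM with ID8 and 98.4, 88.7, 90.6 and 101 CPM with ID8-FSHR. It was higher in ID8-FSHR than without injection by a log2 fold change of 0.20 ± 0.07 (adjusted p = 0.0169), with no overlap of libraries, but the call ended without uninjected replicate 1 or 4 (adjusted p = 0.0525 and 0.0537). For ID8 against no injection the difference was 0.07 (95% interval -0.08 to 0.21) and did not pass.

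Mdm2, the ubiquitin ligase that p53 induces against itself, was higher in ID8 than in uninjected mice and lower in ID8-FSHR than in ID8. The uninjected libraries held 70.2, 75.8, 77.6 and 74.8 CPM, ID8 97.7, 88.2, 95.4 and 93.7 CPM and ID8-FSHR 74.8, 82.8, 75.4 and 80.5 CPM. All 4 ID8 libraries lay above the other 8. The log2 difference of ID8 from no injection was 0.33 ± 0.06 (adjusted p = 0.000297) and that of ID8-FSHR from ID8 -0.26 ± 0.06 (adjusted p = 0.0153). The second call ended in a fit of these groups alone (adjusted p = 0.0567) and without ID8 replicate 1 (adjusted p = 0.0518). Against no injection the ID8-FSHR difference was 0.07 (95% interval -0.06 to 0.20).

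Mdm4, the relative of MDM2 that inhibits p53 without degrading it, fell in both tumour groups. It was measured at 279, 326, 264 and 298 CPM without injection, 161, 159.6, 165 and 154 CPM with ID8 and 165, 157, 141 and 121 CPM with ID8-FSHR, and the uninjected libraries lay above all others. The log2 differences from no injection were -0.87 ± 0.09 (adjusted p = 4.09e-06) for ID8 and -0.999 ± 0.09 (adjusted p = 1.14e-06) for ID8-FSHR. The tumour groups overlapped, with a difference of -0.13 (95% interval -0.34 to 0.07). The B cell and macrophage marker sums given above also were lower in both tumour groups, and their part in this result was not tested.

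Of the 8 genes of cell cycle arrest, 6 were higher and 1 lower in ID8 than in uninjected mice, where 32.7% and 31.4% of all tested genes were, and the same numbers were counted for ID8-FSHR (33.9% and 30.6%). Cdkn1a encodes p21, the inhibitor of cyclin-dependent kinases through which p53 halts the cycle. It was measured at 48.5, 47.7, 41.7 and 40.8 CPM without injection, 150.2, 158, 159.8 and 154 CPM with ID8 and 91.2, 117, 104 and 107 CPM with ID8-FSHR. The 3 groups did not overlap. ID8 was 3.48-fold above no injection (1.80 ± 0.08 on the log2 scale, adjusted p = 2.63e-09) and ID8-FSHR 2.35-fold (1.23 ± 0.08, adjusted p = 5.36e-08). ID8-FSHR was below ID8 by a log2 difference of -0.57 ± 0.08 (adjusted p = 0.000815). Of the 34 promoter windows searched, 1 of its 2 held the pair of half-sites with no mismatch, and the other held none.

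Ccng1, cyclin G1, which recruits a phosphatase that acts on MDM2, followed the same order. Its levels were 159, 157, 161 and 174 CPM without injection, 339, 314, 327 and 316 CPM with ID8 and 221, 253, 270.3 and 254 CPM with ID8-FSHR, again without overlap between any 2 groups. The log2 differences were 0.99 ± 0.07 (adjusted p = 6.92e-08) for ID8 and 0.62 ± 0.07 (adjusted p = 5.07e-06) for ID8-FSHR, both against no injection, and -0.38 ± 0.07 (adjusted p = 0.00403) for ID8-FSHR against ID8. Plk2, a polo-like kinase of stressed cells, varied more within ID8 (187, 137, 90.9 and 138 CPM) than in the uninjected libraries (30.7, 39.4, 37.7 and 33.4 CPM) or in ID8-FSHR (71.1, 87.4, 66.1 and 97.5 CPM). It rose by a log2 fold change of 1.97 ± 0.19 (adjusted p = 1.4e-06) in ID8 and 1.19 ± 0.19 (adjusted p = 0.000106) in ID8-FSHR. Its difference between the tumour groups, -0.78 ± 0.19 (adjusted p = 0.0184), came with overlapping libraries and lost its call without ID8 replicate 1 or 4 or ID8-FSHR replicate 3 (adjusted p from 0.0505 to 0.0535) and in a fit of these groups alone (0.0538).

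Btg2, an antiproliferative cofactor of mRNA deadenylation that lymphocytes and macrophages also use, was lower in ID8-FSHR than in either other group. It had 245, 243, 279.8 and 274 CPM without injection, 275, 283, 251 and 269.7 CPM with ID8 and 191, 165, 163 and 141 CPM with ID8-FSHR, where all 4 libraries lay below the other 8. The differences of ID8-FSHR were -0.66 ± 0.09 (adjusted p = 2.85e-05) from no injection and -0.71 ± 0.09 (adjusted p = 0.000333) from ID8, while that of ID8 from no injection was 0.05 (95% interval -0.14 to 0.24). Gadd45a, a stress sensor of growth arrest and repair, was at 13.6 to 16.6 CPM, 23.3 to 31.3 CPM and 19.2 to 28.2 CPM in the 3 groups and rose by a log2 fold change of 0.85 ± 0.12 (adjusted p = 5.07e-05) in ID8 and 0.63 ± 0.12 (adjusted p = 0.000639) in ID8-FSHR. Of its exon bases 19.1% also belong to the antisense gene E230016M11Rik, which had 299 counts over all libraries against 14779 for Gadd45a. Plk3, a further stress kinase, was lower in ID8 (3.35 to 6.93 CPM) than without injection (7.62 to 9.83 CPM), by a log2 fold change of -0.84 ± 0.22 (adjusted p = 0.00456). Its ID8-FSHR difference from no injection, -0.47 (95% interval -0.94 to just below 0), did not pass with all libraries and passed without ID8-FSHR replicate 2 (-0.54, adjusted p = 0.0361).

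Ckap2 and Psrc1 are listed as p53 targets but encode proteins of the mitotic spindle and its microtubules. Ckap2 was at 3.85, 2.12, 2.36 and 2.61 CPM without injection, 11.9, 8.75, 9.38 and 9.30 CPM with ID8 and 26.0, 26.3, 40.5 and 32.3 CPM with ID8-FSHR, and the 3 groups did not overlap. It rose by a log2 fold change of 1.85 ± 0.20 (adjusted p = 3.91e-06) in ID8 and by a log2 fold change of 3.51 ± 0.21 (adjusted p = 1.98e-08) in ID8-FSHR, and was 3.18-fold higher in ID8-FSHR than in ID8 (1.67 ± 0.19 on the log2 scale, adjusted p = 0.000173). It was the 1 member whose ID8-FSHR libraries all exceeded the ID8 libraries. Psrc1 had 2.43, 1.25, 1.66 and 2.18 CPM without injection, 28.5, 23.0, 31.0 and 28.6 CPM with ID8 and 22.5, 17.0, 28.6 and 21.5 CPM with ID8-FSHR. Both tumour groups lay above the uninjected libraries, by a log2 fold change of 3.89 ± 0.21 (adjusted p = 9.45e-09) and 3.58 ± 0.21 (adjusted p = 1.94e-08), and overlapped each other, with a difference of -0.31 (95% interval -0.71 to 0.09).

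**Figure D2:**
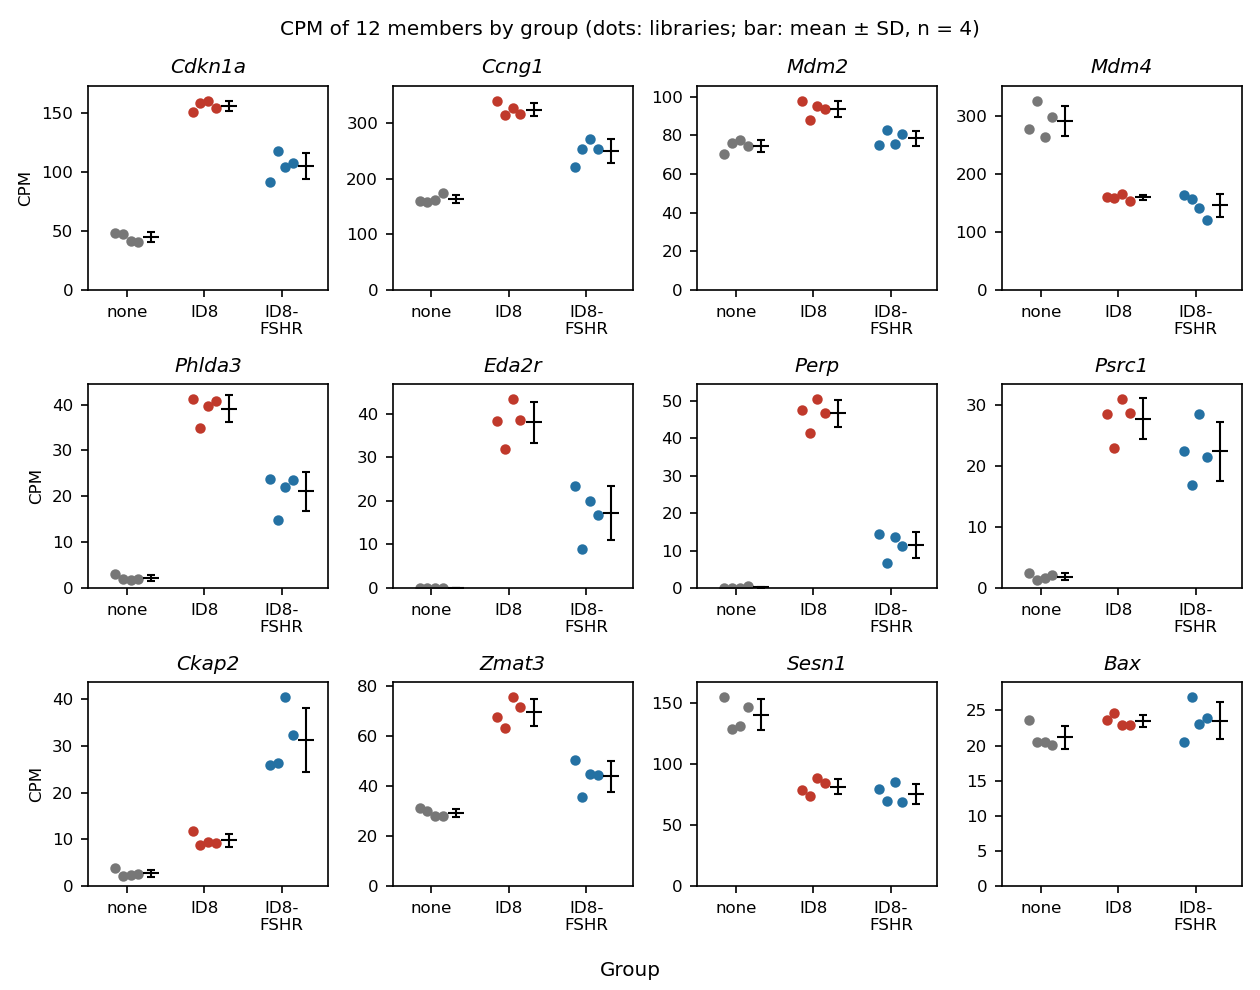
Level in CPM (vertical axis, starting at 0) of 12 members in the 4 libraries of each group, drawn as dots with mean and SD bars beside them. Cdkn1a, Ccng1, Phlda3, Eda2r, Perp and Zmat3 show ID8 above ID8-FSHR above no injection without overlap, Ckap2 shows ID8-FSHR highest, Mdm4 and Sesn1 show the uninjected libraries highest, and the groups of Bax overlap.

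Of the 11 apoptosis genes, 7 were higher and 1 was lower in each tumour group than without injection, where 32.7% and 31.4% of all tested genes were in ID8 and 33.9% and 30.6% in ID8-FSHR. In ID8-FSHR against ID8 6 were lower and 2 higher, against 5.56% and 6.04% of all genes. The widest changes were in genes nearly absent from the uninjected cavity. Eda2r, the X-linked receptor for ectodysplasin A2, stood at 38.4, 31.9, 43.4 and 38.5 CPM with ID8 and 23.3, 8.99, 19.99 and 16.7 CPM with ID8-FSHR. The uninjected libraries held 6, 2, 0 and 4 counts of it, and the library with 0 counts allows up to 0.0606 CPM. The differences from no injection, 9.25 ± 0.45 (adjusted p = 3.11e-09) for ID8 and 8.11 ± 0.44 (adjusted p = 9.84e-09) for ID8-FSHR, thus rest on 12 counts in the uninjected group. All ID8 libraries lay above all ID8-FSHR libraries, which were lower by a log2 fold change of -1.14 ± 0.26 (adjusted p = 0.0148), or by a log2 fold change of -0.91 (adjusted p = 0.0074) without ID8-FSHR replicate 2. The call ended without ID8 replicate 3 (-1.07, adjusted p = 0.0513). The summed tumour and mesothelial markers stood in the same order of groups as Eda2r, Perp and Phlda3, and their part in the differences from no injection was not tested.

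Perp, a tetraspan membrane protein that serves desmosomes of epithelia and is induced by p53 in apoptosis, showed the same order. It was measured at 47.6, 41.5, 50.4 and 46.8 CPM with ID8 and 14.3, 6.58, 13.6 and 11.1 CPM with ID8-FSHR, and the uninjected libraries had 6, 4, 2 and 20 counts of it (0.0404 to 0.436 CPM). It rose by a log2 fold change of 8.16 ± 0.43 (adjusted p = 6.51e-09) in ID8 and 6.13 ± 0.42 (adjusted p = 6.57e-08) in ID8-FSHR. ID8-FSHR was below ID8 by a log2 difference of -2.03 ± 0.29 (adjusted p = 0.000758), or -1.82 (adjusted p = 0.000881) without ID8-FSHR replicate 2, its lowest library.

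Phlda3, which competes with AKT for membrane phosphoinositides and so restrains survival signalling, had 3.14, 1.92, 1.78 and 1.96 CPM without injection, 41.2, 35.0, 39.7 and 40.7 CPM with ID8 and 23.9, 14.7, 22.1 and 23.5 CPM with ID8-FSHR. ID8 was 17.8-fold and ID8-FSHR 9.57-fold above no injection, with log2 differences of 4.15 ± 0.20 (adjusted p = 3.5e-09) and 3.26 ± 0.20 (adjusted p = 2.16e-08). No 2 groups overlapped, and ID8-FSHR differed from ID8 by a log2 fold change of -0.89 ± 0.17 (adjusted p = 0.00614). Aen, a nuclease of apoptotic cells, ran at 14.7, 16.0, 16.2 and 14.1 CPM, 43.8, 38.0, 37.5 and 43.0 CPM and 25.7, 22.0, 25.3 and 31.0 CPM in uninjected, ID8 and ID8-FSHR libraries. It rose by a log2 fold change of 1.41 ± 0.10 (adjusted p = 1.11e-07) and 0.77 ± 0.10 (adjusted p = 2.5e-05), and ID8-FSHR was again below ID8 by a log2 fold change of -0.64 ± 0.10 (adjusted p = 0.00158) with no overlap.

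Trp53inp1, a nuclear body protein that promotes p53 phosphorylation and autophagy, was called higher in ID8 than in either other group. Its levels were 123, 139, 142 and 172 CPM without injection, 261, 223, 283 and 251 CPM with ID8 and 166, 118, 163 and 153 CPM with ID8-FSHR, so that ID8 lay above the other 8 libraries. ID8 differed from no injection by a log2 fold change of 0.82 ± 0.12 (adjusted p = 7.49e-05) and ID8-FSHR from ID8 by a log2 fold change of -0.76 ± 0.12 (adjusted p = 0.0019). The ID8-FSHR difference from no injection was 0.06 (95% interval -0.21 to 0.33) with all libraries and 0.26 (adjusted p = 0.0432) without ID8-FSHR replicate 2.

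Bax, the pore-forming effector of the mitochondrial death pathway, did not pass in any comparison: its levels were 20.1 to 23.6 CPM, 22.9 to 24.6 CPM and 20.5 to 26.9 CPM, and its ID8 difference from no injection was 0.15 (95% interval -0.04 to 0.34). Bbc3, encoding the BH3-only protein PUMA, was at 6.85 to 8.82 CPM without injection, 8.23 to 9.31 CPM with ID8 and 4.97 to 6.11 CPM with ID8-FSHR. It fell in ID8-FSHR against both other groups, by a log2 fold change of -0.44 ± 0.12 (adjusted p = 0.00702) from no injection and -0.61 ± 0.12 (adjusted p = 0.00771) from ID8. Pmaip1, encoding the BH3-only protein NOXA, was at 24.8 to 30.1 CPM without injection, 43.0 to 52.8 CPM with ID8 and 41.2 to 49.4 CPM with ID8-FSHR. It rose by a log2 fold change of 0.78 ± 0.09 (adjusted p = 5.85e-06) in ID8 and 0.71 ± 0.09 (adjusted p = 1.25e-05) in ID8-FSHR. Ei24, an endoplasmic reticulum protein, rose by a log2 fold change of 0.36 ± 0.07 (adjusted p = 0.00091) in ID8 and 0.41 ± 0.07 (adjusted p = 0.000329) in ID8-FSHR from 58.5 to 72.1 CPM.

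Apaf1, the scaffold of the apoptosome, was lower in ID8 (76.2, 84.1, 71.2 and 74.5 CPM) than without injection (106, 97.0, 104 and 102 CPM), by a log2 fold change of -0.42 ± 0.11 (adjusted p = 0.00463). ID8-FSHR spanned 81.8 to 128 CPM and overlapped both groups. It was called higher than ID8 (0.47 ± 0.11, adjusted p = 0.0175), but not without ID8 replicate 3 or 4 (adjusted p = 0.0601 and 0.0567) or in a fit of these groups alone (0.05001). Pidd1, the death-domain scaffold of the PIDDosome that activates caspase-2, had 5.23, 4.94, 4.97 and 5.08 CPM without injection, 5.23, 5.60, 4.04 and 4.34 CPM with ID8 and 5.04, 9.47, 8.11 and 7.83 CPM with ID8-FSHR. ID8-FSHR replicate 1 lay among the uninjected values and the other 3 above them. The calls of ID8-FSHR were 0.59 ± 0.18 (adjusted p = 0.0119) against no injection and 0.66 ± 0.18 (adjusted p = 0.034) against ID8, and the second ended without ID8 replicate 1, 3 or 4 or ID8-FSHR replicate 2, 3 or 4 (adjusted p from 0.0615 to 0.104), in limma-voom (0.0515) and in a fit of these groups alone (0.0744).

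The 4 genes of DNA repair and nucleotide supply did not move together. Polk, a translesion DNA polymerase, was at 25.7, 29.8, 25.5 and 24.7 CPM without injection, 45.4, 41.3, 42.0 and 40.9 CPM with ID8 and 30.5, 24.6, 31.7 and 28.1 CPM with ID8-FSHR, and the ID8 libraries lay above the other 8. Its log2 differences were 0.68 ± 0.09 (adjusted p = 2.01e-05) for ID8 against no injection and -0.56 ± 0.09 (adjusted p = 0.00154) for ID8-FSHR against ID8, and the ID8-FSHR difference from no injection was 0.12 (95% interval -0.07 to 0.31), or 0.29 (adjusted p = 0.00568) without ID8-FSHR replicate 2. Rrm2b, the p53-inducible subunit of ribonucleotide reductase, was called higher in ID8 (50.9 to 58.6 CPM) than without injection (37.2 to 47.9 CPM) by a log2 fold change of 0.33 ± 0.12 (adjusted p = 0.025). That call ended without ID8 replicate 3 or uninjected replicate 1 (adjusted p = 0.0636 and 0.0778). The Rrm2b difference of ID8-FSHR from no injection, 0.08 (95% interval -0.17 to 0.33), became 0.27 (adjusted p = 0.0256) without ID8-FSHR replicate 2.

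Ddb2 and Xpc recognise ultraviolet and other bulky lesions for nucleotide excision repair. Ddb2 ranged over 11.2 to 17.0 CPM without injection, 8.16 to 9.72 CPM with ID8 and 9.35 to 11.03 CPM with ID8-FSHR. It fell by a log2 fold change of -0.66 ± 0.13 (adjusted p = 0.000487) in ID8 and -0.46 ± 0.12 (adjusted p = 0.00586) in ID8-FSHR, and the second call ended without ID8-FSHR replicate 2 (-0.31, adjusted p = 0.0554). Its counts are uncertain, since 23.8% of its exon bases also belong to the antisense gene Acp2, which had 53478 counts over all libraries against 7193 for Ddb2. Xpc lay between 21.7 and 29.4 CPM in all libraries. It was called lower in ID8-FSHR than without injection (-0.22 ± 0.08, adjusted p = 0.0235), and this call ended with median-of-ratios size factors, in DESeq2, without the low-count filter, in a fit of these groups alone and without ID8-FSHR replicate 2, 3 or 4 or uninjected replicate 3 (adjusted p from 0.0501 to 0.257, the highest without ID8-FSHR replicate 2).

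Among the 6 genes of metabolism and stress, 4 were higher and 1 lower in ID8 (all tested genes 32.7% and 31.4%), and 4 were higher and 2 lower in ID8-FSHR (33.9% and 30.6%), each against no injection. The sestrins, which restrain the growth kinase complex mTORC1, split. Sesn1 fell, from 155, 128, 131 and 147 CPM to 78.9, 74.1, 88.3 and 84.8 CPM with ID8 and 79.9, 69.3, 85.0 and 68.5 CPM with ID8-FSHR, with log2 differences of -0.78 ± 0.09 (adjusted p = 7.36e-06) and -0.89 ± 0.09 (adjusted p = 2.27e-06). Sesn2, which the amino acid stress factor ATF4 also induces, rose from 10.9, 10.5, 10.1 and 10.6 CPM to 26.6, 21.1, 30.0 and 30.2 CPM with ID8 and 15.8, 19.5, 19.7 and 18.6 CPM with ID8-FSHR, by a log2 fold change of 1.36 ± 0.12 (adjusted p = 4.04e-07) and 0.81 ± 0.11 (adjusted p = 4.3e-05). ID8-FSHR was below ID8 for Sesn2, by a log2 fold change of -0.55 ± 0.11 (adjusted p = 0.00847) with no overlap, and the tumour groups overlapped for Sesn1.

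Zmat3, an RNA-binding zinc finger protein that controls splicing and transcript stability, repeated the order of Cdkn1a. It had 31.1, 29.8, 27.9 and 27.9 CPM without injection, 67.5, 63.0, 75.5 and 71.5 CPM with ID8 and 50.4, 35.4, 44.9 and 44.4 CPM with ID8-FSHR, with no overlap. The log2 differences were 1.25 ± 0.10 (adjusted p = 2.2e-07) and 0.59 ± 0.10 (adjusted p = 0.000176) from no injection and -0.66 ± 0.10 (adjusted p = 0.000968) between the tumour groups. Gdf15, a secreted stress hormone, was at 0.513 to 1.03 CPM without injection, 2.01 to 4.10 CPM with ID8 and 1.74 to 3.25 CPM with ID8-FSHR. It rose by a log2 fold change of 2.09 ± 0.32 (adjusted p = 7.24e-05) in ID8 and 1.71 ± 0.31 (adjusted p = 0.000372) in ID8-FSHR, and the difference between the tumour groups was -0.38 (95% interval -1.02 to 0.25). Tigar, a fructose bisphosphatase that lowers glycolysis, rose by a log2 fold change of 0.53 ± 0.13 (adjusted p = 0.00319) in ID8 and 0.38 ± 0.13 (adjusted p = 0.0234) in ID8-FSHR from 13.6 to 16.1 CPM, and the second call ended without ID8-FSHR replicate 4 or uninjected replicate 1, 2 or 4 (adjusted p from 0.0551 to 0.0805). Dcxr, a xylulose reductase, was lower in ID8-FSHR (5.04 to 6.98 CPM) than without injection (7.32 to 10.7 CPM, -0.61 ± 0.15, adjusted p = 0.00276) and than in ID8 (7.87 to 8.46 CPM, -0.52 ± 0.15, adjusted p = 0.041). The call against ID8 ended without ID8-FSHR replicate 1, 3 or 4 and without any 1 of the ID8 libraries (adjusted p from 0.0672 to 0.106), and without the low-count filter (0.062).

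Levels of different genes can be compared per kilobase of exon, with lengths from the GENCODE M21 annotation of GRCm38. On this scale Btg2 led the members in uninjected mice, at 94.9 ± 6.93 CPM per kilobase, followed by Ccng1 (46.3 ± 2.10) and Sesn1 (35.2 ± 3.20). In ID8 Btg2 (98.4 ± 4.96) and Ccng1 (92.2 ± 3.31) also had overlapping SDs, and Cdkn1a ranked 3rd at 43.7 ± 1.21 CPM per kilobase. In ID8-FSHR the order of the top 2 was turned, with Ccng1 at 71.0 ± 5.91 and Btg2 at 60.2 ± 7.49, values whose SDs overlap. Perp and Eda2r were the lowest of the 32 in uninjected mice, at 0.0856 ± 0.0932 and 0.0103 ± 0.0089 CPM per kilobase. Perp stood 7th in ID8, at 23.9 ± 1.91 CPM per kilobase, and 18th in ID8-FSHR, at 5.85 ± 1.79.

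**Figure D3:**
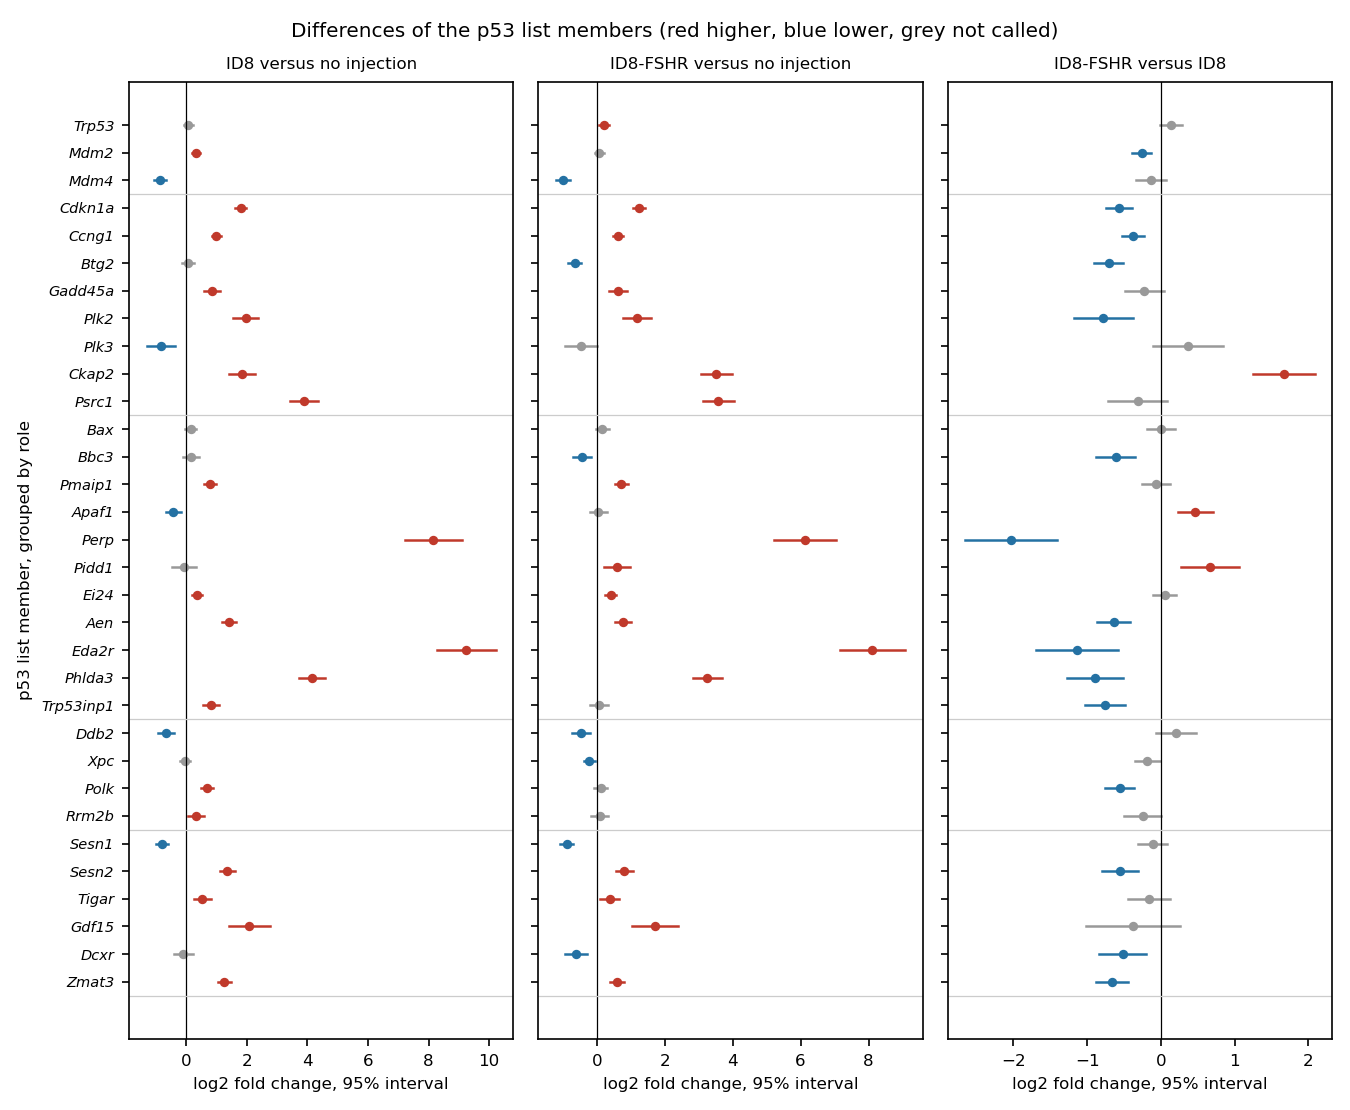
Log2 fold change of each of the 32 genes with its 95% interval (horizontal axis, a separate scale in each panel) in the 3 comparisons, coloured red where called higher, blue where called lower and grey where not called. Against no injection 20 and 18 members are red, and in the panel of ID8-FSHR against ID8 15 members are blue and 3 are red.

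The tumour and mesothelial marker level differed between the tumour groups, so the difference of ID8-FSHR from ID8 was also fitted over the 8 tumour libraries with that level as a covariate. The 11 markers did not move alike. In ID8-FSHR against ID8 5 were lower (5.56% of all tested genes), 0 were higher and 6 did not pass. Their log2 differences ran from -1.80 to 0.21. The mean log2 CPM of these markers was 6.72 to 7.05 in ID8 and 5.28 to 6.41 in ID8-FSHR, without overlap. That leaves the fit to separate group and marker level from the spread within groups. Most of this spread came from ID8-FSHR replicate 2, at 5.28 against 6.29 to 6.41 in the rest of its group. The fit with the covariate was not repeated without that library, so its values depend on it to an unknown degree. With the covariate 4 members were lower in ID8-FSHR and 1 was higher. Calls also fell over all genes, to 823 in either direction, against 1962 without the covariate. The 4 were Cdkn1a at -0.72 ± 0.11 (adjusted p = 0.00591), Btg2 at -0.70 ± 0.14 (adjusted p = 0.0209), Perp at -1.29 ± 0.15 (adjusted p = 0.0016) and Dcxr at -0.78 ± 0.19 (adjusted p = 0.0396), and the 1 was Ckap2 at 2.01 ± 0.21 (adjusted p = 0.00138). For Eda2r the difference became -0.27 ± 0.18 (adjusted p = 0.482), for Phlda3 -0.37 ± 0.11 (adjusted p = 0.106), for Zmat3 -0.33 ± 0.12 (adjusted p = 0.155) and for Aen -0.37 ± 0.15 (adjusted p = 0.202). These 4 no longer passed, and neither did the other 9 calls of this comparison. Among those 9 the log2 difference stayed about as large as without the covariate for 5: Plk2 (-0.78 without and -0.86 with it), Bbc3 (-0.61 and -0.70), Mdm2 (-0.26 and -0.30), Sesn2 (-0.55 and -0.53) and Ccng1 (-0.38 and -0.35). It was nearer to 0 for Trp53inp1 (-0.76 and -0.37), Polk (-0.56 and -0.31), Pidd1 (0.66 and 0.32) and Apaf1 (0.47 and 0.16). The fit with the covariate uses 8 libraries in place of 12.

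**Figure D4:**
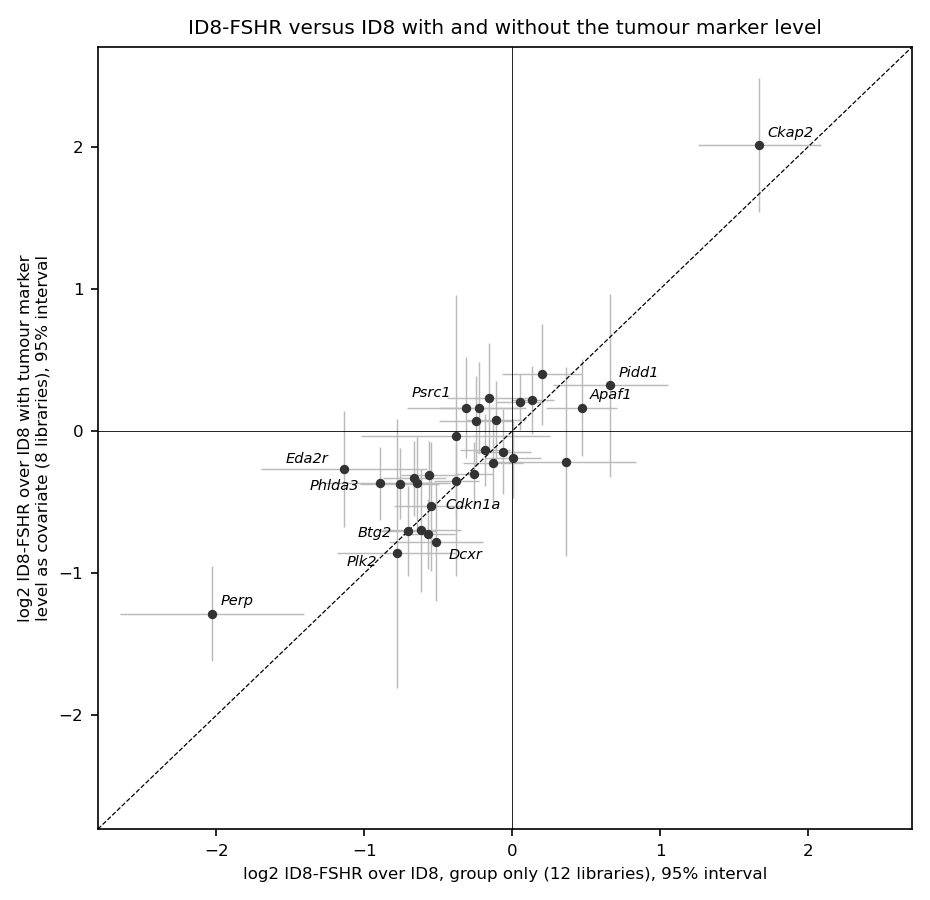
Log2 difference of ID8-FSHR from ID8 for each member, with the group only over 12 libraries (horizontal axis) and with the tumour marker level as a covariate over the 8 tumour libraries (vertical axis), both with 95% intervals. The dashed line marks equal values, with Cdkn1a, Btg2 and Ckap2 near it or beyond it and Perp, Eda2r and Phlda3 nearer to 0 with the covariate.

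Perp, Eda2r, Phlda3, Psrc1 and Ckap2, the 5 members whose uninjected mean was under 10% of the mean in either tumour group, were also set against the summed tumour and mesothelial markers of the same library. This ratio was chosen after their values were seen and is given as a description, with no test. Perp had 14.01 ± 1.005 CPM per 1000 CPM of markers in ID8 and 5.76 ± 0.71 in ID8-FSHR, and Eda2r 11.4 ± 1.11 and 8.55 ± 0.83, both without overlap. Phlda3 overlapped between the groups, at 11.8 ± 0.40 and 11.04 ± 2.66, and so did Psrc1, at 8.33 ± 0.66 and 11.9 ± 3.78. Ckap2, whose uninjected mean was 27.8% of its ID8 mean, had 2.95 ± 0.32 in ID8 and 17.1 ± 6.99 in ID8-FSHR, without overlap.

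Genes that act on p53 were taken as a further list of 20, of which 19 were tested. It holds kinases of the damage response, cofactors, ligases and relatives of p53. In ID8 2 were higher and 9 lower than without injection (all tested genes 32.7% and 31.4%), and in ID8-FSHR 5 were higher and 7 lower (33.9% and 30.6%), the second near the shares of all genes. Between the tumour groups 4 were higher in ID8-FSHR and 1 lower (6.04% and 5.56%). The median log2 differences over the 19 genes were -0.12, -0.09 and 0.07. Atm, the kinase that senses double-strand breaks, was at 105 ± 9.11 CPM without injection, 54.9 ± 4.52 CPM with ID8 and 87.0 ± 4.26 CPM with ID8-FSHR, and was higher in ID8-FSHR than in ID8 by a log2 fold change of 0.66 ± 0.08 (adjusted p = 0.000208). Chek1, the checkpoint kinase of replication stress, ran at 3.24 ± 0.632, 11.4 ± 3.45 and 25.8 ± 2.45 CPM and was higher in ID8-FSHR than in ID8 by a log2 fold change of 1.17 ± 0.19 (adjusted p = 0.00175). Chek2, the checkpoint kinase downstream of ATM, differed by a log2 fold change of 0.89 ± 0.15 (adjusted p = 0.00267) between the same groups. Sirt1, a deacetylase of p53, fell by a log2 fold change of -1.06 ± 0.10 (adjusted p = 8.88e-07) in ID8 and -0.97 ± 0.10 (adjusted p = 1.9e-06) in ID8-FSHR.

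A list of 20 further p53 targets, 19 of them tested, gave 8 higher and 7 lower in ID8 (all tested genes 32.7% and 31.4%) and 7 higher and 7 lower in ID8-FSHR (33.9% and 30.6%), shares near those of all genes. In ID8-FSHR against ID8 it gave 1 higher and 4 lower (6.04% and 5.56%). Ak1, an adenylate kinase, was among the genes near 0 in uninjected mice (0.0866 ± 0.0815 CPM) and reached 34.1 ± 1.98 CPM with ID8 and 18.2 ± 5.97 CPM with ID8-FSHR. Abhd4, a lipase of N-acyl phospholipids, followed the order of Cdkn1a at 43.8 ± 3.20, 92.2 ± 7.82 and 66.4 ± 8.05 CPM, with a difference of -0.47 ± 0.09 (adjusted p = 0.00676) between the tumour groups. Slc19a2 stood at 6.92 ± 0.918, 16.5 ± 0.513 and 16.3 ± 0.978 CPM. Pltp went the other way, at 885 ± 91.2 CPM without injection, 357 ± 68.5 CPM with ID8 and 210 ± 35.9 CPM with ID8-FSHR. Gtse1, a microtubule protein of the G2 and S phases that restrains p53, was the 1 gene of this list higher in ID8-FSHR than in ID8, by a log2 fold change of 1.26 ± 0.21 (adjusted p = 0.0019). Over the 19 genes the median log2 differences were -0.08, 0.0023 and -0.02 in the 3 comparisons.

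p53 also lowers cell cycle genes, through p21 and the DREAM repressor complex, and 15 of these were taken as a list. All 15 were higher in each tumour group than without injection (32.7% of all tested genes for ID8 and 33.9% for ID8-FSHR). All 15 were also higher in ID8-FSHR than in ID8 (6.04% of all tested genes). Libraries did not overlap for any of the 15 in these comparisons, against 31.8%, 29.6% and 7.74% of all tested genes without overlap in the same direction. The median log2 differences were 1.497 for ID8 and 3.33 for ID8-FSHR against no injection and 1.90 between the tumour groups, against -0.03, 0.00083 and -0.01 over all genes. Top2a, the DNA topoisomerase of dividing cells, stood at 47.2 ± 10.2, 141 ± 30.9 and 503 ± 75.7 CPM, and Mki67, the proliferation antigen, at 83.5 ± 16.5, 136 ± 23.4 and 505 ± 104 CPM. Their differences between the tumour groups were 1.84 ± 0.18 (adjusted p = 8.8e-05) and 1.89 ± 0.18 (adjusted p = 7.78e-05). In the same libraries Cdkn1a was lower and Ckap2 higher in ID8-FSHR than in ID8, and the part of cycling cells in these results was not tested.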

How the data were processed

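The authors deposited whole-number read counts per gene, not normalized as far as the labels and values show, 1 column per library, all 12 mapped to a sample. The submitters' processing notes name bcl2fastq 2.20, STAR 2.7.9a, featureCounts, Subread 1.6.4 and GRCm38.p6. The sources used here do not state the strand setting, the annotation release or what was done with multi-mapping reads, so counts of overlapping genes and close copies are uncertain.

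Groups came from the labels. Counts of all 12 libraries were fitted by group in edgeR 4.0.16 (R 4.3.3) with TMM scaling, its default low-count filter and a robust quasi-likelihood F test, adjusted over 16915 genes. p-values measure the spread between these libraries. A count of 0 was given a limit of 3 counts (0.0444 to 0.0653 CPM), which covers counting error only. Promoter windows came from RefSeq on GRCm38.p6. Alternatives included DESeq2 1.42.0 and limma-voom (limma 3.58.1), and the test was tried on simulated data.

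The members, the 3 pathway lists and the 7 marker lists were chosen with earlier results of these data known. By rule the text names all members, up to 3 genes of each other list with the smallest adjusted p in ID8 against no injection and in ID8-FSHR against ID8, and fixed marker genes. Fshr and the genes overlapping members were named as checks. Values of the T cell, monocyte and neutrophil, mast cell and red cell lists are in the closing section.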

Additional observations from a re-analysis of the deposited data

Results flagged for a closer look

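In 3 of the 96 groups of 4 libraries (32 members in 3 groups) 1 library lay apart from the other 3, by a gap above Dixon's 95% critical value for 4 values. Chance alone flags about 1 in 20 such groups. These were Bax at 23.6 CPM and Phlda3 at 3.14 CPM in uninjected replicate 1, and Tigar at 16.1 CPM in uninjected replicate 3.

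The 18 members called between ID8-FSHR and ID8 are members whose difference from the shared uninjected libraries is unequal in the 2 tumour groups, as the test between these groups gives it. In log2 terms the 15 lower in ID8-FSHR were Perp at -2.03, Eda2r at -1.14, Phlda3 at -0.89, Plk2 at -0.78, Trp53inp1 at -0.76, Btg2 at -0.71, Zmat3 at -0.66, Aen at -0.64, Bbc3 at -0.61, Cdkn1a at -0.57, Polk at -0.56, Sesn2 at -0.55, Dcxr at -0.52, Ccng1 at -0.38 and Mdm2 at -0.26. The 3 higher were Ckap2 at 1.67, Pidd1 at 0.66 and Apaf1 at 0.47. The tumour and mesothelial marker sum differed between the same groups, as given above.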

How the results depend on the processing

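No value that passed the test changed direction under any alternative. Differences that did not pass could change sign, as for Psrc1 between the tumour groups (-0.31, and 0.16 with the tumour marker level as a covariate). Outside the stricter thresholds, 24 of 25 member calls in ID8 against no injection, 21 of 25 in ID8-FSHR against no injection and 4 of 18 in ID8-FSHR against ID8 (Cdkn1a, Btg2, Perp and Ckap2) held in every refit of the counts. With an absolute log2 fold change of at least 1 required, ID8 against no injection gave 11 members higher and 0 lower (5409 genes called in all), ID8-FSHR against no injection 8 and 0 (5365 genes), and ID8-FSHR against ID8 1 and 2 (672 genes). In ID8-FSHR against ID8, 1 member was higher in a fit of only the groups compared, with an adjusted p under 0.01 (707 of all genes called) and with the tumour marker level as a covariate, where 4 members were lower and 823 genes were called, against 1962 in the main result. Fewer libraries or a stricter threshold are part of these settings, and the cause was otherwise not tested.

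Leaving out 1 library at a time gave 19 to 20 members higher, 5 lower and 10160 to 10478 genes called in ID8 against no injection. It gave 16 to 21 higher, 6 to 7 lower and 10188 to 11166 genes in ID8-FSHR against no injection. In ID8-FSHR against ID8 it gave 1 to 3 higher, 12 to 15 lower and 961 to 3136 genes, with 961 without ID8 replicate 4, 1035 without ID8 replicate 3, 1189 without ID8-FSHR replicate 4, 1203 without ID8 replicate 1 and 3136 without ID8-FSHR replicate 1. The replicate block gave 20 higher and 5 lower members in ID8 against no injection, 18 and 8 in ID8-FSHR against no injection, and 2 and 14 with 1776 genes called in ID8-FSHR against ID8, where Pidd1 (adjusted p = 0.0557) and Dcxr (0.0746) did not pass. Plk3 in ID8-FSHR against no injection passed with the block (adjusted p = 0.0163). Same-numbered libraries deviated together with correlations from -0.22 to 0.35, and in 3 of 12 cases a library correlated best with its own number, so the numbers were not taken to pair the libraries. Depth limits Eda2r and Perp in uninjected mice, with 0 to 20 counts per library.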

Other observations

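The other marker lists gave these summed levels in uninjected, ID8 and ID8-FSHR libraries. The 9 T cell markers summed to 206 to 380 CPM, 79.8 to 90.4 CPM and 102 to 183 CPM. Cd2 had a large part in this sum, with means of 192, 31.9 and 33.6 CPM. By gene, 8 T cell markers were lower in ID8 than without injection (31.4% of all tested genes). In ID8-FSHR 1 was lower (30.6%) and 8 did not pass, with a median log2 difference of -0.08. The 8 monocyte and neutrophil markers summed to 466 to 583 CPM, 252 to 317 CPM and 226 to 430 CPM. Of these 8, 0 were higher and 2 lower in ID8 than without injection (32.7% and 31.4% of all tested genes). In ID8-FSHR 2 were higher and 1 lower (33.9% and 30.6%). The 6 mast cell markers summed to 863 to 1368 CPM, 770 to 964 CPM and 548 to 856 CPM. The 5 red cell genes varied most within groups, from 0.71 to 87.6 CPM, 1.09 to 218 CPM and 2.65 to 376 CPM. ID8-FSHR replicate 2 was the lowest library of its group for 15 members, the highest for 9 and between the others for 8. Defb29, the defensin named in the label of the line, was at 0 counts in every uninjected library, at 20.8 to 29.1 CPM in ID8 and at 8.41 CPM in ID8-FSHR replicate 2, against 20.1 to 23.8 CPM in the other 3 libraries of that group.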
